A study of Mus musculus with 4 samples.

Results

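The genes described here are the 4 colony-stimulating factors Csf1, Il34, Csf2 and Csf3 and the 4 receptor chains Csf1r, Csf2ra, Csf2rb and Csf3r. They were chosen by symbol, and all 8 were found once each among the 31054 features measured. The RNA came from single cells of the stromal vascular fraction (SVF), the cells of fat that remain once floating adipocytes are removed, of gonadal adipose tissue from 18-month-old male mice. Every mouse carried p16-CreERT2/R26-LSL-tdTomato and had received tamoxifen, so that cells in which the p16 (Cdkn2a) promoter had driven the Cre are marked by tdTomato for good, whether or not they still transcribe p16. Cells were sorted for CD45, the surface protein of blood-derived cells, and for tdTomato, which gave 4 groups, Tom+ and Tom- cells under the label CD45- and Tom+ and Tom- cells under the label CD45+. Each group is 1 library of 3' ends, so no value here has a replicate, no p-value was computed, and every interval is a 95% interval that covers counting error only.

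CSF1 and IL-34 are secreted or membrane-held ligands of the same receptor, CSF1R, which macrophages and monocytes need to survive, divide and settle in tissues such as fat. CSF2 (GM-CSF) binds a receptor made of its own alpha chain, CSF2RA, and a beta chain, CSF2RB, that the receptors for IL-3 and IL-5 also use, and it activates granulocytes, macrophages and dendritic cells. CSF3 (G-CSF) acts through CSF3R and drives the making and release of neutrophils.

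After filtering, 13878 cells remained, 3886 and 3674 in the Tom+ and Tom- libraries labelled CD45- and 1927 and 4391 in those labelled CD45+, with a median of 18331 to 19516 unique molecular identifiers (UMIs, counted RNA molecules) per cell and 64083756 to 139397501 UMIs per library before filtering. The tdTomato transcript was at 713 and 714 CPM (UMIs of a gene per 1000000 UMIs of the same cells) in the Tom+ libraries and at 15.8 and 18.7 CPM in the Tom- libraries. Ptprc, which encodes CD45, was at 217 and 157 CPM in the libraries labelled CD45- and at 223 and 188 CPM in those labelled CD45+, so the transcript did not separate the CD45 labels, and the label is used only as a name. Of the kept cells, 3555 had a barcode that also occurred in another library's file, and they held a median of 35633 UMIs against 14269 in the other cells. Within the kept cells a pair of libraries shared 1 to 16 barcodes. Values without the shared barcodes are given where they moved a result.

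The cells fell into 30 clusters. Markers gave a name to 17 of them, in 11 classes, and the other 13 are called by number because they raised markers of more than 1 cell type or too few markers. The classes most used here are the adipose progenitor-like (APC-like) cells, with 249 and 1460 Tom+ and Tom- cells under the label CD45- and 95 and 1615 under CD45+, and the macrophage-like, monocyte-like, dendritic-like, neutrophil-like, mast-like, mesothelial-like, B cell-like, T cell-like and plasma cell-like cells. Cluster 2 (led by Arg1 and Olr1) and cluster 12 (led by Fcna, Vsig4 and Marco) each raised all 8 macrophage markers and kept a number because monocyte markers were among their leading genes. Cluster 8 (led by Cxcl13, Cxcl5 and Saa3) raised all 7 mesothelial markers and 6 of the 8 APC markers, and cluster 13 (led by Gpihbp1, Rbp7 and Cldn5) raised all 7 blood endothelial markers and 6 mural ones. The members and their pathway genes were left out of the genes used for clustering. Unless said otherwise, 4 values in a row give the Tom+ and then the Tom- library labelled CD45-, followed by the Tom+ and then the Tom- library labelled CD45+, and a level is the CPM of the summed UMIs of the cells of a class. Since 1 molecule gives 1 UMI near its 3' end, these levels do not scale with transcript length.

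**Figure D1:**
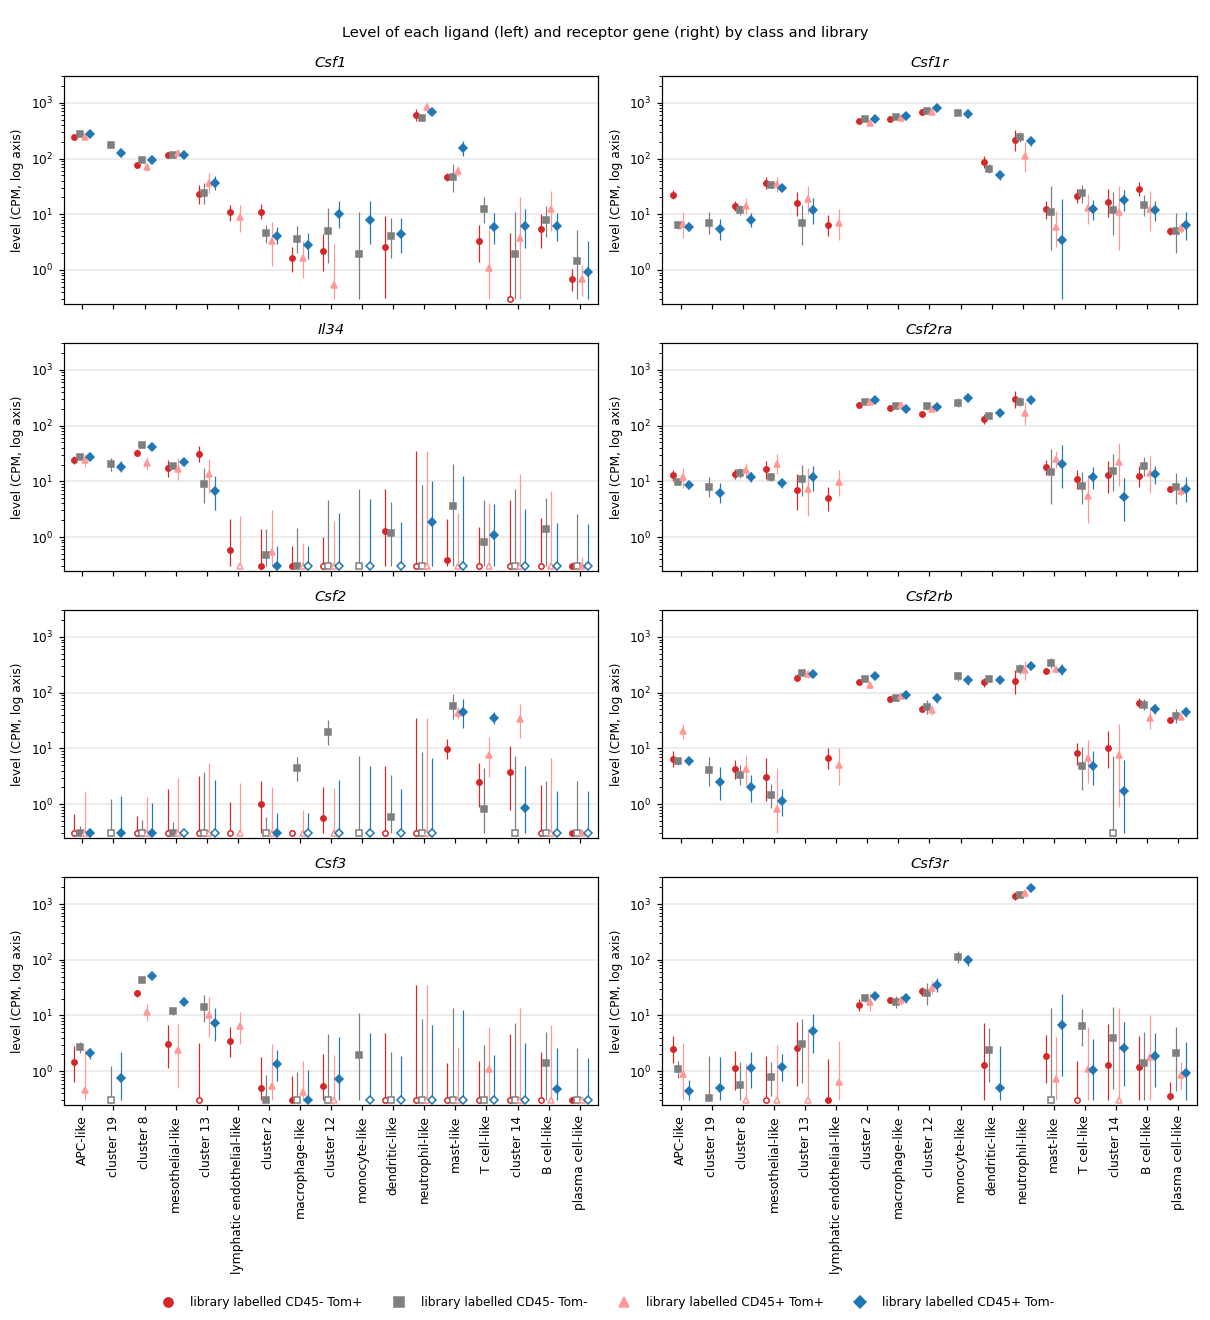
Level of each of the 8 genes (CPM, log axis) in the named classes and some of the numbered clusters, where a library had at least 20 cells. There is 1 symbol per library, and open symbols, drawn at 0.3 CPM, stand for 0 UMIs. Clusters 16, 20, 22, 24, 25, 26 and 27 are not drawn. The 4 symbols of a class lie close together for Csf1, Csf1r, Csf2ra and Csf2rb in the classes that lead them, and lie far apart for Csf2 and Csf3.

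Relative to all UMIs of the cells (CPM), Csf1 was highest in neutrophil-like cells and next in APC-like cells. In neutrophil-like cells it stood at 609, 531, 848 and 699 CPM, from 21, 85, 23 and 123 cells, and at 643 CPM (598 to 691) over all 252 cells. In APC-like cells it stood at 249, 275, 247 and 273 CPM. All 4 neutrophil-like values lay above all 4 APC-like values, so the order of these classes by CPM did not depend on the library. In molecules counted the order was the other way, with 760 Csf1 UMIs in 252 neutrophil-like cells and 21293 in 3419 APC-like cells.

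Depth differed between the classes, with a median of 3791 to 4887 UMIs in neutrophil-like and 21038 to 22704 in APC-like cells, and Csf1 was found in 63.1% of neutrophil-like and 92.5% of APC-like cells at full depth. With every cell thinned to 2000 UMIs, Csf1 was found in 38.1%, 54.1%, 52.2% and 49.6% of neutrophil-like cells and in 33.9%, 37.5%, 39.0% and 36.2% of APC-like cells. B cell-like cells, with a median of 5296 to 6506 UMIs and taken as the level that free RNA gives, showed Csf1 in 1.02%, 1.93%, 2.78% and 1.35% of thinned cells. The 8 APC markers summed to 366, 772, 339 and 824 CPM in neutrophil-like cells against 28690 to 33220 CPM in APC-like cells.

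Below these classes Csf1 was at 117, 116, 124 and 116 CPM in mesothelial-like cells, the lining of the fat pad, and at 75.5, 94.99, 69.8 and 94.9 CPM in cluster 8. Cluster 19 (led by Cthrc1 and Tagln, with 7 of the 8 APC markers) was at 176 and 128 CPM in the CD45- Tom- and CD45+ Tom- libraries, where it had 79 and 105 cells. Cluster 24, which raised 7 of the 8 APC markers and 6 plasma cell markers, was at 129 CPM in CD45- Tom+. It had 71 and 23 cells in the Tom+ libraries and 1 cell in each Tom- library. In mast-like cells Csf1 was at 47.0, 47.6, 60.3 and 154 CPM, and in the CD45+ Tom- library 16 of 45 UMIs were in 1 cell. Macrophage-like cells, which respond to CSF1, were at the low end, with a mean of 2.43 CPM over the libraries against 7.96 CPM in B cell-like cells.

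By total molecules the APC-like cells held most of the Csf1. They held 45.0%, 75.4%, 38.3% and 76.5% of a library's Csf1 UMIs and 71.1% of the 29961 UMIs over all libraries, while they held 25.4% of all UMIs. The lower shares in the Tom+ libraries went with fewer APC-like cells, which were 6.41% and 4.93% of the cells there and 39.7% and 36.8% in the Tom- libraries. Cluster 24 held 454 of 3031 Csf1 UMIs in CD45- Tom+ and 148 of 1432 in CD45+ Tom+. In the Tom- libraries it held 3 and 2 Csf1 UMIs.

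**Figure D2:**
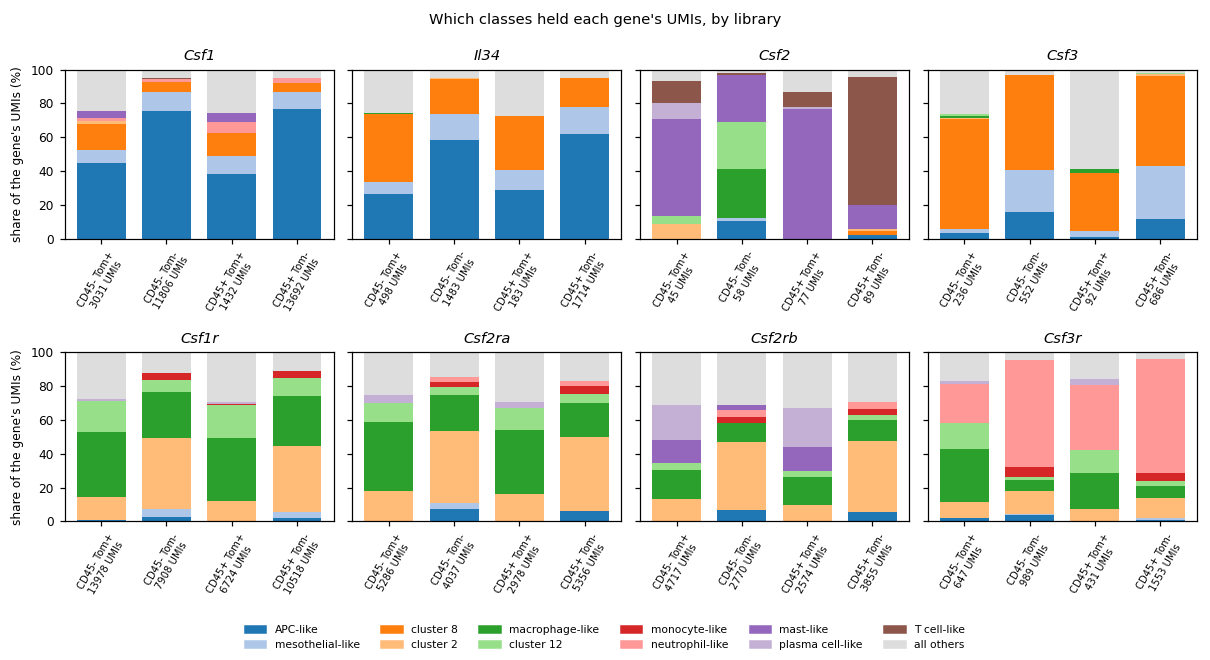
Share of each gene's UMIs (percent, stacked to the whole) that each class held in each of the 4 libraries. A fixed set of classes, the same for every gene, is named where a class is among the first 8 of that gene and library. All others are pooled, among them cluster 24 for Csf1 and cluster 16 for Csf1r. APC-like cells take the largest segment of Csf1 in all 4 libraries, and cells of macrophage-like, cluster 2 and cluster 12 take most of Csf1r.

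Il34 was a transcript of stromal cells. It stood at 32.7, 44.3, 21.2 and 41.6 CPM in cluster 8, at 24.0, 26.9, 23.9 and 27.5 CPM in APC-like cells and at 17.4, 19.04, 16.9 and 22.3 CPM in mesothelial-like cells. Cluster 8 was the highest of these in 3 of the 4 libraries, and in CD45+ Tom+ its value lay inside the interval of the APC-like value (17.9 to 31.3). Neutrophil-like cells, the leading class of Csf1, held almost none, with a mean of 0.92 CPM for Il34. In B cell-like cells 2 Il34 UMIs were counted in 772 cells.

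The 4 clusters of the APC-like class differed far more in Il34 than in Csf1. Over all libraries Il34 was at 12.4 CPM (11.1 to 13.8) in cluster 0 (led by Inmt and Mmp11), 24.7 CPM (22.7 to 26.8) in cluster 6 (led by Ptx3, Il6 and Sult1e1), 38.2 CPM (35.8 to 40.8) in cluster 4 (led by Fgf10, Ccl11 and Cxcl14) and 66.6 CPM (59.1 to 74.9) in cluster 21 (led by Pi16 and Sema3c). The intervals of the 4 clusters did not overlap. In CD45- Tom- the same order ran 13.4, 24.1, 39.3 and 54.8 CPM, and in CD45+ Tom- it ran 11.5, 26.7, 37.5 and 77.4 CPM. Cluster 21, which carries Pi16 and other genes of the least committed progenitors, was therefore highest in Il34 in both large libraries. It had only 11 and 3 cells in the Tom+ libraries, at 48.2 and 81.8 CPM of Il34.

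Csf1 in those clusters was at 240 CPM in cluster 0, 280 in cluster 6, 297 in cluster 4 and 278 in cluster 21. The clusters with Csf1 closest together, 6 and 21, had intervals that overlapped (273 to 287 and 262 to 294). Cluster 0, which was lowest in Il34, was also lowest in Csf1 (234 to 246).

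Cluster 13, the endothelial and mural cluster, had Il34 at 31.2, 9.05, 13.3 and 6.66 CPM from 36, 9, 9 and 9 UMIs. By total molecules APC-like cells held 58.6% and 61.7% of the Il34 UMIs in the Tom- libraries, and cluster 8 held 40.4% and 32.2% in the Tom+ libraries, where it was the first source in each.

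**Figure D3:**
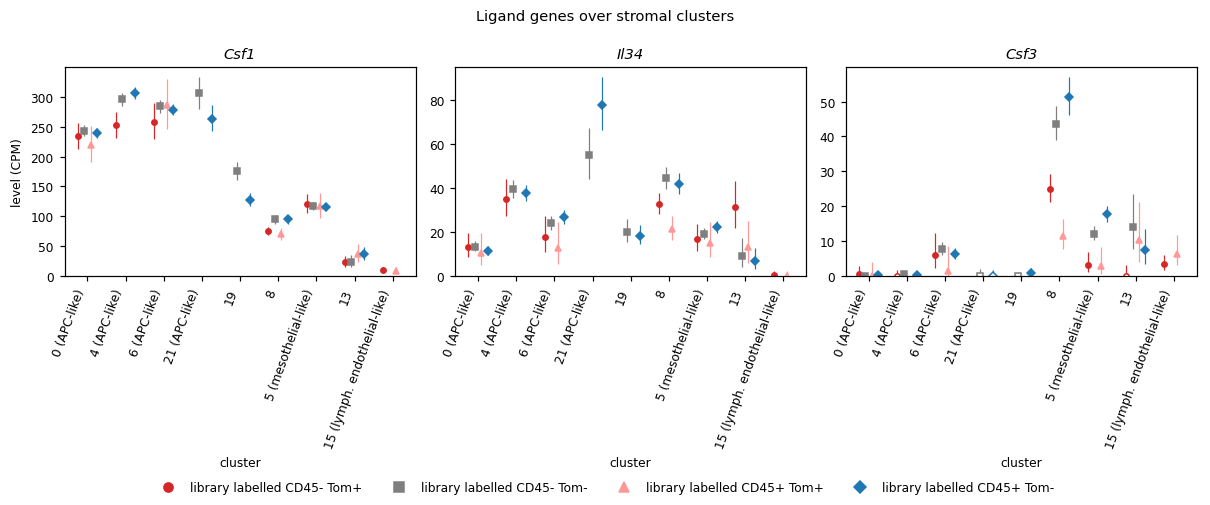
Csf1, Il34 and Csf3 (CPM with 95% counting interval) in the stromal clusters drawn, with 1 symbol per library. Il34 steps up from cluster 0 to clusters 6, 4 and 21 of the APC-like class in the Tom- libraries, while Csf1 stays between 240 and 306 CPM there.

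Csf2, the ligand that activates granulocytes and macrophages, was rare, with 269 UMIs in all, 45, 58, 77 and 89 by library. Mast-like cells, granule-filled tissue cells of allergy, held 26, 16, 59 and 13 of these, or 9.93, 58.6, 43.4 and 44.4 CPM. These UMIs sat in few cells. They were in 15, 1, 7 and 2 mast-like cells, and 1 cell held 5 of 26, 16 of 16, 53 of 59 and 10 of 13. The level of Csf2 in mast-like cells is thus set by 1 cell in 3 of the 4 libraries. In CD45- Tom- macrophage-like cells held the most Csf2 UMIs, 17 of 58 (4.455 CPM), and cluster 12 held 16, all in 1 cell.

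T cell-like cells held Csf2 at 2.46, 0.81, 7.70 and 35.7 CPM. In CD45+ Tom- this was 67 UMIs in 12 cells, of which 1 cell held 36. When the cells were clustered more finely, 13 cells left the T cell-like class as an ILC2-like cluster, the innate lymphocytes that make IL-5 and IL-13. These 13 cells, 8 of them in CD45+ Tom-, held 59 of the 269 Csf2 UMIs, all in that library and in 6 cells, and 41 of the 67 Il5 UMIs. In B cell-like cells no Csf2 UMI was counted in 772 cells, and none in neutrophil-like or monocyte-like cells.

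Csf3, which drives neutrophil output, was mainly in stromal cells that carry mesothelial or endothelial markers. Cluster 8 held 153, 308, 32 and 362 of 1566 Csf3 UMIs, or 24.9, 43.6, 11.5 and 51.4 CPM. It was the first source in each library, with 64.8%, 55.8%, 34.8% and 52.8% of the Csf3 UMIs. Mesothelial-like cells stood at 3.07, 12.0, 2.41 and 17.5 CPM and held 25.4% and 31.6% of the UMIs in the Tom- libraries.

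Few cells made up these Csf3 levels. In cluster 8 the UMIs were in 25 of 191, 27 of 238, 6 of 79 and 40 of 219 cells, or 13.1%, 11.3%, 7.59% and 18.3%. A cell of cluster 8 with any Csf3 held on average 6.12, 11.4, 5.33 and 9.05 UMIs. At full depth the share of cells with Csf3 was thus not lower in CD45- Tom+ than in CD45- Tom-, while the number per such cell was. The CD45- Tom+ cells were deeper, with a median of 32374 against 29310 UMIs, and their thinned share was the lower one. After thinning, 3.87%, 4.74%, 1.27% and 5.61% of cluster 8 cells had Csf3, against 0 of 771 B cell-like cells, which allows a share of up to 0.389%.

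Among APC-like cells Csf3 was mainly in cluster 6, the cluster led by Ptx3 and Il6, at 5.93, 7.75, 1.57 and 6.31 CPM, and 156 of the APC-like UMIs were there against 8, 11 and 0 in clusters 0, 4 and 21. The small cluster 25 (led by Vwf and Lep, with endothelial and APC markers) had the highest Csf3 value, 129 CPM from 17 cells of CD45- Tom+ and 51.8 CPM from 56 cells of CD45+ Tom+. It had 5 and 4 cells and no Csf3 UMI in the Tom- libraries. In these Tom+ libraries 34 of 46 and 14 of 26 of its UMIs were in 1 cell. Over all libraries its cells held a median of 0.27 times the UMIs of their libraries. By library the median was 21652 UMIs in CD45- Tom+, where all cells had 19041.5, and 4472 in CD45+ Tom+, where all cells had 18331.

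Csf1r marked the macrophage and monocyte clusters. Cluster 12, which carries genes of resident macrophages, had 694, 716, 683 and 798 CPM. Macrophage-like cells, led by the lipid-handling genes Atp6v0d2 and Gpnmb, had 511, 555, 526 and 574 CPM. Cluster 2, led by Arg1, had 476, 520, 437 and 504 CPM. Cluster 12 lay above macrophage-like cells and these above cluster 2 in every library, although the ranges of the lower pair overlapped. Cluster 22, with 53, 29, 24 and 36 cells, held 6.42%, 6.22%, 6.47% and 4.80% of the Csf1r UMIs. In CD45- Tom+ it had 596 CPM, between cluster 12 and macrophage-like cells. Its place in this order in the other libraries is not given here.

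Monocyte-like cells had Csf1r at 682, 664, 633 and 622 CPM, from 12, 48, 6 and 58 cells, within the range of neither cluster 12 nor macrophage-like cells. Neutrophil-like cells had 216, 244, 113 and 206 CPM and dendritic-like cells 88.0, 66.2, 89.0 and 49.9 CPM. With every cell thinned to 2000 UMIs, Csf1r was found in 67.7% to 72.8% of cluster 12 cells, 63.7% to 72.6% of macrophage-like cells, 53.2% to 63.9% of cluster 2 cells and 17.4% to 28.2% of neutrophil-like cells. In B cell-like cells, the background for Csf1r, it was found in 6.63%, 4.35%, 5.56% and 2.37%, and in mesothelial-like cells in 6.85%, 5.13%, 5.88% and 6.03%. By level the mesothelial-like cells had 36.9, 32.9, 34.5 and 29.1 CPM of Csf1r, and their 8 macrophage markers summed to 213, 65.8, 73.0 and 61.2 CPM. The Tom- APC-like cells labelled CD45-, at 72.6 CPM of these markers, had 6.34 CPM of Csf1r.

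The cells that held most Csf1r differed between Tom+ and Tom- libraries. Macrophage-like cells held 38.6% and 37.5% of the Csf1r UMIs in the Tom+ libraries and 26.8% and 29.5% in the Tom- libraries. Cluster 2 held 13.7% and 11.9% in the Tom+ libraries and 42.1% and 39.3% in the Tom- libraries. Cluster 12 held 18.0% and 19.2% against 7.27% and 10.4%. Cluster 16 held 13.2% and 14.6% in the Tom+ libraries, from 162 and 92 cells. It had only 2 and 6 cells in the Tom- libraries. In the Tom+ libraries its cells held a median of 49526 and 55588.5 UMIs, against 26158 and 25858 in macrophage-like cells. By share of Csf1r molecules, the macrophage-like cells led by Gpnmb were thus first in the Tom+ libraries and the cluster led by Arg1 in the Tom- libraries.

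Csf2ra, the alpha chain that binds GM-CSF, was spread over the myeloid classes other than mast-like cells. It had 204, 260, 395 and 312 CPM in monocyte-like, 300.0, 270.0, 170 and 289 CPM in neutrophil-like and 237, 267, 267 and 284 CPM in cluster 2 cells. These 3 classes had overlapping values. Macrophage-like cells had 206, 229, 235 and 203 CPM, cluster 12 had 163, 220, 201 and 213 CPM, and dendritic-like cells had 132, 151, 143 and 170 CPM. Over libraries with at least 50 cells, the neighbors cluster 12 and macrophage-like, and cluster 12 and dendritic-like, overlapped in Csf2ra.

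In mast-like and APC-like cells Csf2ra was low. Mast-like cells had 17.9, 14.6, 25.0 and 20.5 CPM. APC-like cells, taken as the background for the GM-CSF receptor chains, had 12.8, 9.56, 11.7 and 8.72 CPM, and Csf2ra was found in 2.42%, 1.44%, 4.21% and 1.67% of them after thinning, against 37.9% to 41.6% of cluster 2 cells.

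Csf2rb, the beta chain shared with the IL-3 and IL-5 receptors, had a wider range of receivers. Neutrophil-like cells had 159, 268, 255 and 299 CPM, mast-like cells 249, 344, 266 and 259 CPM and cluster 13, the blood vessel cluster, 187, 225, 215 and 220 CPM. Dendritic-like cells had 154, 177, 207 and 166 CPM and cluster 2 had 157, 174, 138 and 197 CPM. Mast-like cells lay above cluster 13, and cluster 13 above dendritic-like cells, in every library, although the ranges of the latter pair overlapped. The other neighbors in this order overlapped as well. Macrophage-like cells (77.3, 78.9, 87.9 and 89.8 CPM) and cluster 12 (51.4, 56.0, 49.7 and 80.0 CPM) had less Csf2rb than cluster 2 in every library.

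Mast-like cells and cluster 13 thus held the beta chain Csf2rb with little of the alpha chain Csf2ra. After thinning, 36.9%, 52.6%, 35.5% and 39.1% of mast-like cells had Csf2rb, and 34.6%, 37.6%, 34.2% and 27.0% of cluster 13 cells. Both chains were seen together in 4 of 360 and 4 of 172 mast-like cells of the Tom+ libraries. In neutrophil-like cells 18.8% and 13.8% of thinned cells of the Tom- libraries had both Csf2ra and Csf2rb, where the product of the single shares was 17.9% and 15.8%.

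B cell-like cells had Csf2rb at 65.3, 61.3, 35.8 and 51.3 CPM and plasma cell-like cells at 31.9, 38.7, 37.1 and 44.9 CPM, above the 6.56, 5.94, 20.3 and 5.88 CPM of APC-like cells. Because plasma cell-like cells made up 21.3% and 22.1% of the cells in the Tom+ libraries and 1.06% and 1.32% in the Tom- libraries, they held 20.6% and 23.3% of the Csf2rb UMIs in the Tom+ libraries. In the Tom- libraries cluster 2 held 40.2% and 41.8%.

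Csf3r, the G-CSF receptor, was the most class-bound of the receptors by level. Neutrophil-like cells had 1416, 1467, 1565 and 1922 CPM, and after thinning 85.7%, 88.2%, 87.0% and 95.1% of them had a Csf3r UMI against 0.13% of B cell-like cells over all libraries. Monocyte-like cells came next with 35.9, 113, 52.7 and 98.5 CPM, and cluster 12 had 27.1, 24.9, 31.7 and 35.6 CPM. The 85 and 123 neutrophil-like cells of the Tom- libraries, 2.31% and 2.80% of the cells, held 63.2% and 67.2% of the Csf3r UMIs there. In the Tom+ libraries they held 23.3% and 38.5%, and in CD45- Tom+ macrophage-like cells held more (31.1%) at only 19.03 CPM.

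**Figure D4:**
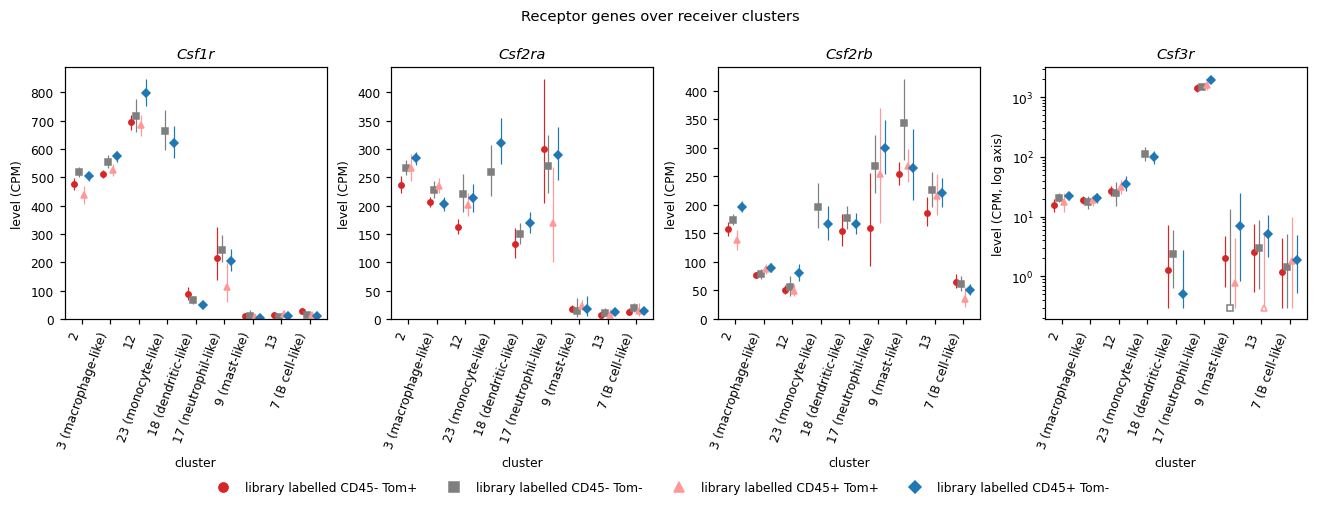
Csf1r, Csf2ra, Csf2rb and Csf3r (CPM with 95% counting interval) in the myeloid clusters and other receiver clusters, with 1 symbol per library. Cluster 22 is not drawn. Among the clusters drawn, Csf1r is highest in cluster 12. Csf3r lies between 1416 and 1922 CPM in neutrophil-like cells and reaches 113 CPM at most elsewhere. Csf2rb is high in mast-like cells and cluster 13 where Csf2ra is low.

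The question of the sort was how Tom+ cells differ from Tom- cells. In whole libraries Csf1, Il34 and Csf3 were lower in Tom+ than in Tom-. Csf1 was at 31.8 against 158 CPM in the pair labelled CD45- and at 30.1 against 150.0 CPM in the pair labelled CD45+, log2 ratios of -2.31 and -2.32. Il34 had log2 ratios of -1.93 and -2.29 and Csf3 of -1.58 and -1.96. Among the receptors Csf3r was lower (-0.97 and -0.91), Csf1r (0.47 and 0.30) and Csf2rb (0.41 and 0.36) were higher, and Csf2ra was at 0.04 and 0.09.

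Most of these differences shrank when the class mix was held fixed. With the Tom+ level of each class weighted by the Tom- library's class mix, the log2 ratio of Csf1 was -0.10 and -0.12, that of Il34 -0.24 and -0.38, that of Csf3r -0.09 and -0.32, that of Csf1r 0.02 and -0.10 and that of Csf2rb -0.15 and -0.03. Csf3 kept a lower Tom+ level, with -1.04 and -2.15. At the Tom- mix the ratios of Csf1, Il34, Csf1r, Csf2rb and Csf3r thus lay closer to 0 than in whole libraries. In the pair labelled CD45+ that of Csf3 did not. Csf2, lower in Tom+ in one pair and higher in the other, went from -0.72 and 0.73 to -1.98 and -0.43, on the few UMIs described above. Csf2ra went from 0.04 and 0.09 to -0.10 and 0.06. Sizes depended on the mix chosen. At the Tom+ library's mix Csf3 was at 2.47 CPM in Tom+ against 3.41 CPM in the pair labelled CD45-. In the other pair it was at 1.935 against 3.99 CPM. Csf1r in the pair labelled CD45- was then at 147 against 183 CPM, and in whole libraries at 147 against 106 CPM.

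Within classes, genes were tested if the mean of both libraries reached 5 CPM, and a gene was past the threshold if it was at least 2-fold higher or lower with an interval that left out a log2 ratio of 0. In APC-like cells 1 of 5 members tested was past this in each pair, where 1.76% of all genes tested were in the pair labelled CD45- and 1.89% in the pair labelled CD45+. Csf1 was among the genes near 0, with log2 ratios of -0.15 (-0.23 to -0.07) and -0.14 (-0.27 to -0.02), and both became smaller or changed sign without the shared barcodes (-0.01 and 0.10). Il34 had -0.16 and -0.20, with intervals that include 0, and 0.14 and 0.27 without the shared barcodes.

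The member past the threshold in the APC-like class as a whole, in the pair labelled CD45-, was Csf1r, at 22.4 CPM in Tom+ and 6.34 CPM in Tom-, a log2 ratio of 1.82 (1.49 to 2.15), which was 0.99, under 2-fold, with marked doublets kept. The 8 macrophage markers, all detected, summed to 264, 72.6, 95.3 and 65.5 CPM in the APC-like cells and so were also highest in CD45- Tom+, as were the myeloid genes Tyrobp (58.7 against 14.9 CPM) and Spi1 (9.84 against 3.03 CPM). Their part in the Csf1r result was not tested. In the pair labelled CD45+ Csf1r was at 6.77 and 5.80 CPM. The member past the threshold there was Csf2rb, at 20.3 CPM in 95 Tom+ cells and 5.88 CPM in Tom- cells, a log2 ratio of 1.79 (1.29 to 2.26), but 27 of its 45 UMIs were in 1 cell, and without the top cell of each library the ratio was 0.71.

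Inside the APC-like class the pair labelled CD45- could be compared in clusters 0, 4 and 6, where 2 of 5, 2 of 5 and 2 of 6 members were past the threshold and 2.1%, 3.75% and 2.53% of all genes were. Csf1r was one of them in each cluster, at 18.4 against 6.14 CPM in cluster 0, 31.6 against 5.71 CPM in cluster 4 and 16.1 against 7.35 CPM in cluster 6. Csf2rb was the other, higher in Tom+ in clusters 0 (7.94 against 2.17 CPM) and 4 (8.39 against 2.40 CPM) and lower in cluster 6 (2.54 against 14.4 CPM, from 3 UMIs), where it was higher with marked doublets kept. With those doublets kept the log2 ratio of Csf2rb in cluster 4 was 0.56, under 2-fold. Csf1 was at -0.06, -0.23 and -0.14 and Il34 at -0.0016, -0.16 and -0.44 in these clusters. In the pair labelled CD45+ only cluster 0 had enough cells, and none of 4 members was past the threshold there, where 3.07% of all genes were.

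In macrophage-like cells none of the 4 members tested was past the threshold in either pair, where 1.47% and 1.97% of all genes were. Csf1r was slightly lower in Tom+, with log2 ratios of -0.12 (-0.19 to -0.05) and -0.13 (-0.20 to -0.05), and the median of all genes tested was -0.04 and -0.05. Csf1r in the pair labelled CD45+ was at -0.35 without the shared barcodes and at -0.02 under a looser cell filter, so its size was not settled. Csf2rb was at -0.03 in both pairs. Csf2ra was at -0.15 (-0.27 to -0.04) in the pair labelled CD45- and at 0.21 (0.09 to 0.33) in the pair labelled CD45+. With finer clustering, Csf2rb was at -0.67 and -0.83 and Csf2ra at -0.36 and -0.13, so the values of both chains depended on where the macrophage-like class was drawn.

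In cluster 2, 1 of 5 members tested in the pair labelled CD45- and none of 4 in the pair labelled CD45+ were past the threshold, where 1.88% and 2.77% of all genes were. The one was Csf1, at 11.2 CPM in Tom+ and 4.53 CPM in Tom- cells, from 45 and 29 UMIs, 1.31 on the log2 scale. Csf1r was at -0.13 (-0.21 to -0.04) and -0.21 (-0.32 to -0.10), and Csf2rb was at -0.15 and -0.51, the latter with an interval of -0.71 to -0.32.

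In cluster 12, which had 49 Tom- cells in the pair labelled CD45-, 1 of 5 members was past the threshold in each pair, where 3.44% and 4.28% of all genes were. Both rest on few molecules. Csf2 was at 0.55 CPM against 19.9 CPM, and all 16 UMIs of the Tom- library were in 1 cell. Csf1 was at 0.53 CPM against 10.2 CPM, from 1 UMI against 14. Csf1r in cluster 12 was at -0.05 and -0.22 (-0.34 to -0.11), and Csf2rb at -0.13 and -0.69.

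Csf3 was lower in the Tom+ cells of cluster 8 and of the mesothelial-like class, the first and second sources of it in the Tom- libraries. In cluster 8, none of 5 members was past the threshold in the pair labelled CD45- and 1 of 5 in the pair labelled CD45+, where 2.04% and 3.92% of all genes were. That one was Csf3, with a log2 ratio of -2.16 (-2.73 to -1.64), and it was at -0.81 (-1.10 to -0.52) in the other pair. Without the top cell of each library the ratios were -3.48 and -1.07, so the direction did not rest on 1 cell.

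In mesothelial-like cells 1 of 5 and 2 of 5 members were past the threshold, where 2.03% and 4.06% of all genes were. Csf3 was so in both pairs, at -1.97 (-3.44 to -0.81) and -2.86 (-5.15 to -1.30), from 6 and 3 UMIs in 75 and 34 Tom+ cells, and the first was -0.51 without the shared barcodes. Csf2ra was the other, in the pair labelled CD45+, at 20.9 CPM against 9.21 CPM, from 26 UMIs. Csf1 in mesothelial-like cells was at 0.01 and 0.09.

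In cluster 13, the endothelial and mural cluster, 2 of 6 members were past the threshold in the pair labelled CD45- and none of 6 in the pair labelled CD45+, where 5.94% and 6.1% of all genes were. Il34 was higher in Tom+, at 31.2 against 9.05 CPM, a log2 ratio of 1.79 (0.71 to 3.03), and this ended with marked doublets kept (-0.03). Csf3 had 0 UMIs in the Tom+ cells and 14 in the Tom- cells, 13 of them in 1 cell. In the other pair Csf3 was at 10.3 CPM in Tom+ and 7.40 CPM in Tom- cells.

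Both macrophage ligands were also somewhat lower in Tom+ cells of cluster 8, under the threshold of 2-fold. Csf1 was at -0.33 (-0.50 to -0.16) and -0.44 (-0.68 to -0.21), and Il34 at -0.44 (-0.70 to -0.18) and -0.97 (-1.40 to -0.56). Without the shared barcodes Csf1 was at 0.0038 and -0.76 and Il34 at -0.18 and -0.33. The median of all genes tested in cluster 8 was -0.12 and -0.07.

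In mast-like cells, which had 38 and 46 Tom- cells, 1 of 5 and 1 of 4 members were past the threshold, where 4.68% and 4.62% of all genes were. These were Csf2 in the pair labelled CD45-, with all 16 Tom- UMIs in 1 cell, and Csf1 in the pair labelled CD45+, at -1.35 (-1.89 to -0.79) and at -0.93 without the top cell of each library. Csf2rb in mast-like cells was at -0.47 (-0.78 to -0.14) and 0.04.

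In T cell-like cells 1 of 4 members was past the threshold in each pair, where 7.72% and 7.59% of all genes were. Csf1 was at 3.28 against 12.2 CPM in the pair labelled CD45-, below or near the level in B cell-like cells. Csf2 was at 7.70 against 35.7 CPM in the pair labelled CD45+, a log2 ratio of -2.21 (-3.58 to -1.09), and it was 0.93 when the finer clustering took the ILC2-like cells out of the class. In B cell-like cells of the pair labelled CD45-, none of 4 members was past the threshold, where 5.48% of all genes were, nor was any of 4 in the pair labelled CD45+, where 4.66% were. In plasma cell-like cells none of 3 was in either pair (5.54% and 3.85% of all genes), and in dendritic-like cells none of 3 in the pair labelled CD45- (6.31%). Cluster 14, with T and NK markers, had 1 of 3 in the pair labelled CD45- (6.18%), Csf2rb from 8 UMIs against 0, and 2 of 3 in the pair labelled CD45+ (5.83%), Csf2 from 9 UMIs in 1 Tom+ cell and Csf2ra from 6 UMIs against 6. Cluster 20, with macrophage and plasma cell markers and led by globin and cell cycle genes, had 1 of 3 in the pair labelled CD45+ (9.82%), Csf2rb at 39.2 against 85.9 CPM, a log2 ratio of -1.13 that was under 2-fold without the shared barcodes (-0.82), with marked doublets kept (-0.98) and under a looser cell filter (-0.48). Csf3r passed the threshold in no class compared.

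**Figure D5:**
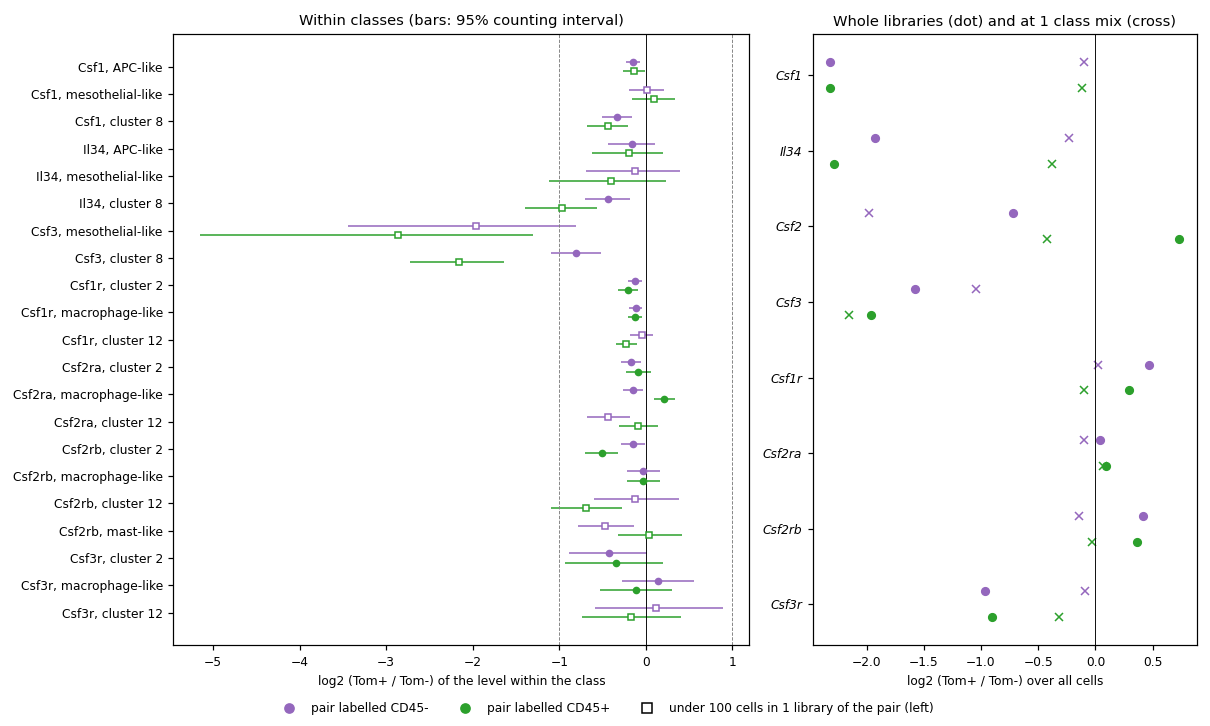
Log2 ratio of the Tom+ to the Tom- level of each gene, within classes on the left (points with 95% counting interval, open squares where a library had under 100 cells, dashed lines at 2-fold) and in whole libraries on the right (dots) and at the class mix of the Tom- library (crosses). The crosses of Csf1, Il34 and Csf3r lie near 0 where the dots lie between -0.91 and -2.32, while those of Csf3 stay at -1.04 and -2.15.

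Around the 8 genes, 28 genes of the same pathways were followed. Among relatives of the GM-CSF receptor, Csf2rb2, a second beta chain that in the mouse serves IL-3, was highest in cluster 13 (74.7 CPM), mast-like cells (44.7) and cluster 2 (38.3), the cells that also held Csf2rb. Il3ra, the alpha chain for IL-3, led in mast-like cells (65.3 CPM) and Il5ra, that for IL-5, in plasma cell-like cells (36.8 CPM). Of the ligands of these chains, Il3 had no UMI in any library and Il5 had 67.

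Other partners of IL-34 and a protease that frees membrane-held CSF1 were placed as well. Sdc1, a cell surface proteoglycan that binds IL-34, led in plasma cell-like cells (130 CPM), and Ptprz1, another IL-34 partner, was at 6.79 CPM in mesothelial-like cells and lower elsewhere. Adam17, a shedding protease, led in cluster 2 (178 CPM) and cluster 12 (163 CPM).

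Spi1, a transcription factor that turns on myeloid genes, was highest in neutrophil-like cells (631 CPM). Downstream of the receptors, Pim1, a kinase induced by them through STAT5, was highest in neutrophil-like cells (1702 CPM). Cish, an inhibitor induced by STAT5, was highest in mast-like cells (192 CPM), where Csf2rb was high. It came second in T cell-like cells (143 CPM), where Csf2rb had a mean of only 6.12 CPM. Socs3, an inhibitor induced by STAT3, was highest in APC-like cells (438 CPM).

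The same threshold was applied to these 28 genes, with the share of all genes past it in brackets. In macrophage-like cells none of 22 tested was past it (1.47% and 1.97%), in cluster 12 none of 23 (3.44% and 4.28%) and in cluster 8 none of 18 (2.04% and 3.92%), in either pair. In cluster 2, 1 of 24 was higher in the pair labelled CD45- (1.88%), Cish, at 23.9 against 11.4 CPM, and 1 of 24 lower in the other (2.77%). In APC-like cells 2 of 21 were higher in the pair labelled CD45- (1.76%), Tyrobp and Spi1, and none of 20 in the other (1.89%).

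Within APC-like cluster 4 of the pair labelled CD45-, 6 of 23 pathway genes were higher in Tom+ (3.75%), the blood cell signaling genes Tyrobp (104 against 12.9 CPM), Spi1, Ptpn6, Pik3cd and Inpp5d and the STAT5 target Cish. This was the cluster with the highest Tom+ level of Csf1r among the APC-like clusters, and the part of other cells' RNA in it was not tested. In APC-like cluster 0 of that pair 1 of 20 was higher (2.1%), and in cluster 6 1 of 19 was higher and 1 lower (2.53%). Mesothelial-like cells had 2 of 20 higher in the pair labelled CD45- (2.03%), among them Tyrobp at 27.1 against 12.1 CPM, and none of 18 in the other (4.06%).

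T cell-like cells had 1 higher and 1 lower of 22 in the pair labelled CD45- (7.72%) and 1 higher and 3 lower of 22 in the other (7.59%), and B cell-like cells had 2 of 23 higher (5.48%) and 2 of 24 higher (4.66%), among them Sdc1 in both pairs. Mast-like cells had 1 of 22 lower in the pair labelled CD45-, Maf (4.68%), and 1 of 23 higher and 1 lower in the other, Socs3 and Adam17 (4.62%). In dendritic-like cells of the pair labelled CD45- 1 of 23 was higher, Maf (6.31%). Plasma cell-like cells had 1 higher and 2 lower of 21 in the pair labelled CD45- (5.54%) and 1 of 21 lower in the other (3.85%), with Maf lower in both. Cluster 13 had none of 23 and then 2 of 22 higher (5.94% and 6.1%), cluster 14 had 3 of 21 lower and then 3 higher and 2 lower of 21 (6.18% and 5.83%), and cluster 20 had 1 higher and 2 lower of 24 in the pair labelled CD45+ (9.82%). In APC-like cluster 0 of that pair none of 19 was past the threshold (3.07%).

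For the genome build mm10 with GENCODE annotation, Csf1 lies at chr3:107741048-107760469 on the minus strand, Il34 at chr8:110741829-110805924 (minus), Csf2 at chr11:54247271-54249667 (minus), Csf3 at chr11:98701263-98703629 (plus), Csf2ra at chr19:61223957-61228429 (minus), Csf2rb at chr15:78325752-78353847 (plus), Csf3r at chr4:126024550-126044440 (plus) and Csf1r on chromosome 18. Genes of the opposite strand overlap Il34 (Gm15894 and Gm15895), Csf2 (Gm12223) and Csf1r (Hmgxb3). Csf2rb has a close copy, Csf2rb2, with which it shares 14.6% of its 60-base windows over the whole transcript and none over the last 500 bases, the end that this assay reads.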

How the data were processed

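Male 18-month-old p16-CreERT2/R26-LSL-tdTomato mice gave 4 sorted SVF suspensions, each 1 library (10x Genomics 3' kit). The authors deposited whole-number UMI counts per gene and barcode, made per the submitters' processing notes with Cell Ranger 3.0.2 against mm10. Following the study's filter, barcodes with more than 1000 and fewer than 7000 genes and under 8% mitochondrial UMIs were kept. Marked doublets were removed with a simulated-doublet score at 0.8% per 1000 barcodes. Cells were clustered (scanpy 1.11.5, leidenalg 0.10.2; 2000 variable genes without members and pathway genes, 30 components, 15 neighbors, resolution 1.0). A cluster was named X-like when at least 3 markers of X were at 20 CPM or more and at least 4-fold the median over clusters. No unrelated type could be nearly as strong, and no other type could have more markers among the cluster's leading genes. A cluster of low depth also needed a marker of X among these leading genes. These thresholds were set after seeing the data.

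Counts were summed per class and library and divided by all UMIs there (CPM). Intervals are 95% exact Poisson (levels), exact Clopper-Pearson (shares) and conditional exact (ratios). A count of 0 allows up to 3 counts. Classes with at least 100 cells in both libraries of a pair were compared, and those with at least 30 were added later. On simulated counts with 200 genes changed 3-fold in APC-like cells, 100% were called and 0% of unchanged genes. These counts were drawn from the Poisson model that the intervals assume. They therefore cannot show how often a gene passes the threshold when its UMIs sit in few cells, as for several members above. The study's rank tests over cells were not used, because cells of 1 library are not replicates, and the number of animals per library is not given in the sources used here. The members and lists were chosen with earlier results of these data known. Named genes are the members, 28 pathway genes and the 3 genes most correlated with each member, and leading genes of clusters are named beside them. A few results of that rule are not reported here. The alternatives tried were a looser cell filter, doublets kept, finer clustering, 4000 variable genes, equal cell weights, another total, shared barcodes left out and thinning.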

Additional observations from a re-analysis of the deposited data

Results flagged for a closer look

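The level of Csf2ra in macrophage-like cells went opposite ways in the 2 pairs of libraries. The log2 ratio of Tom+ to Tom- was -0.15 in the pair labelled CD45- and 0.21 in the pair labelled CD45+, and neither counting interval held 0. It was singled out because the direction differed between the pairs, and the difference was not tested, since each group is 1 library. Neither ratio reached 2-fold, and at Leiden resolution 2 the ratios were -0.36 and -0.13, in the same direction.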

How the results depend on the processing

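No paired analysis was possible because each group is 1 library, and no replicate could be left out for the same reason. Of 1108 alternative values for single genes and classes, 993 stayed within the counting interval, 109 moved, 48 of them with cells thinned to 2000 UMIs, and 6 reversed. Reversed means that a ratio past the threshold of 2-fold changed sign. Sign changes of other ratios were counted among those that stayed or moved, as for Il34 in APC-like cells without the shared barcodes. The reversed ones were Il34 in cluster 13 of the pair labelled CD45- (-0.0318 with marked doublets kept, -0.16 thinned), Csf2rb in APC-like cluster 6 of that pair (1.76 with doublets kept, 1.68 with 4000 variable genes) and Csf2 in T cell-like cells of the pair labelled CD45+, at a log2 ratio of 0.96 under a looser cell filter (500 genes or more, mitochondrial UMIs under 20%) and 0.93 at Leiden resolution 2. Csf1r in cluster 12 was 599 CPM at resolution 2 and 851 CPM with immunoglobulin, mitochondrially encoded and ribosomal protein genes left out of the total. Csf2ra in monocyte-like cells was 386 CPM with that total and 267 CPM thinned, and Csf3 in cluster 25 was 26.8 CPM when every cell weighed the same. Without barcodes found in more than 1 library, the ratio of Csf1 in APC-like cells was -0.0098 (pair labelled CD45-) and 0.10 (CD45+), and thinned it was 0.0559 (CD45+). That of Csf1r in macrophage-like cells of the pair labelled CD45- was -0.0248 with equal weights and -0.0222 thinned, and in the pair labelled CD45+ it was -0.0162 under the looser filter and -0.35 without shared barcodes. The cause was not tested. Leaving out the top cell of each library, minimum class sizes of 30 cells and the fixed mix of APC-like clusters were chosen after seeing the data. With 4000 variable genes no class matched the leading classes of Csf2ra and Csf3, and under the looser filter none matched that of Csf3, so these have no value. Depth limits Csf2, at 269 UMIs, most.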

Other observations

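The genes whose levels followed each member most closely over 57 profiles of class and library were described by Pearson's r of log2(CPM + 1). Profiles of 1 library share depth and free RNA, and profiles of 1 class share their cells' identity, so no p is given. For Csf1 they included Steap4 (0.87) and Crispld2 (0.85), and for Il34 they were Arhgef17 (0.96), Atp1b2 (0.96) and Twist1 (0.95). For Csf2 they were Ppp1r14c (0.79), Il13 (0.77) and Ccl1 (0.74), and for Csf3 Clu (0.83), Stmn2 (0.81) and Clec14a (0.81). Among receptors they were Lyz2 (0.96), Ccl6 (0.96) and Clec4a2 (0.95) for Csf1r, Tlr13 (0.95), Ptafr (0.95) and Alox5ap (0.94) for Csf2ra, Csf2rb2 (0.83), Rassf4 (0.82) and Themis2 (0.79) for Csf2rb, and Tlr6 (0.90), Clec4n (0.90) and Clec5a (0.89) for Csf3r. The values for Csf2 rest on 269 UMIs.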
